A study of Mus musculus with 24 samples.

Results

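The keratin family was examined in the epidermis of mice with a deletion of the clock activator BMAL1. Its members were taken as every gene whose symbol is Krt followed by digits and an optional letter, with genes of keratin-associated proteins and pseudogenes left out. Of 52 such symbols, Krt74 was left out because GENCODE lists it as a pseudogene, and 51 keratins remained of 17721 genes in all. The epidermis came from the back skin of 24 male C57BL/6 mice, aged 8 weeks, in which Cre recombinase driven by the keratin 14 promoter deleted Bmal1 (gene symbol Arntl), and these mice are called EpiKO. Skin was taken every 4 h over a day of 12 h light and 12 h dark, from zeitgeber time (ZT) 0, when lights came on, to ZT20, with 4 animals per time. The authors set these EpiKO libraries against wild-type (WT) epidermis, whose libraries are no samples of this series, so genotype and library set cannot be told apart. The keratin 14 promoter is active in basal keratinocytes and the outer root sheath, so their descendants carry the deletion, while Langerhans cells, T cells and melanocytes in the same preparations do not come from that lineage.

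Keratins are the intermediate filament proteins of epithelia. Each filament is built from pairs of an acidic type I and a basic type II keratin, so the genes are used in couples that mark the state of the cell. In the epidermis, Krt5 with Krt14 or Krt15 marks the dividing basal layer, Krt1 with Krt10 the suprabasal layers of cells that differentiate, and Krt6a, Krt6b, Krt16 and Krt17 are known for their rise after wounding or stress, with lasting expression in hair follicles. The follicle adds its own set, with inner root sheath keratins (Krt25 to Krt28 and Krt71 to Krt73), the companion layer keratin Krt75, and hair shaft keratins (Krt31 to Krt36 and Krt81 to Krt87), which are made mainly while hair grows. In adult mouse back skin, follicles alternate between growth and rest, and at the age sampled here they are usually at rest.

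The 51 measured members were 26 type I and 25 type II genes. In mm10, 25 lay on chromosome 11 between 99232761 and 100269871, all on the minus strand, and 26 on chromosome 15 between 101347444 and 102032027, of which 22 were on the minus strand. Krt18 is the type I gene within the chromosome 15 cluster. The members were grouped as 3 basal, 4 suprabasal, 4 stress, 5 simple epithelial, 7 inner root sheath, 1 companion layer, 13 hair shaft and 14 other keratins.

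The measurements are the authors' fits of a cosine curve to each gene in each genotype. For every gene the authors' deposited table gives a mean level in log2, a peak-to-trough height in log2, a peak time in h, and a weight between 0 and 1 for each of 5 rhythm models: no rhythm, EpiKO only, WT only, the same rhythm in both, or different rhythms. The model of largest weight gave the class of a gene where that weight was at least 0.5, and its mean was called different where the model with separate means had a weight of at least 0.5. A weight is not a p-value, and folds of rhythms compare the fitted peak with the fitted trough. All means, heights, peak times and weights below are those of the authors' deposited table. The deleted gene itself, Arntl, was assigned a rhythm in WT only, peaking at ZT22.7 with a height of 4.65-fold. Its mean was 9.65 in EpiKO and 9.50 in WT and so was not lower in EpiKO, but this mean covers the whole gene and does not show whether the deleted part was transcribed. The table holds no value per animal, so no spread between animals, no depth and no standard error can be given for any value, and a high fitted level at one time cannot be traced to 1 animal or to all 4. Over all 17721 genes the median mean difference was 0, since genes fitted with one shared mean have a difference of 0 in the table. Of 9 measured keratinocyte markers, 4 are keratins described here, and the other 5 ran from Lor, at 8.68 in both genotypes, to Dsp, at 16.79 in EpiKO and 17.07 in WT. The 8 markers of Merkel cells, 3 of which are the keratins Krt8, Krt18 and Krt20, had medians of 0.15 in EpiKO and -0.10 in WT (log2). Langerhans cell, T cell and fibroblast markers summed to 2442, 2720 and 868 in EpiKO and to 1133, 1343 and 698 in WT (linear scale). Called higher in EpiKO were 4 of 4, 2 of 3 and 3 of 5 (32.7% of all genes), and none was lower (37.4%). The T cell sum was mostly Thy1, at 11.25 in EpiKO and 10.16 in WT (log2). Cd3g had 7.57 and 6.68, and Cd3e 6.64 in both. For bulk tissue such as this, fewer cells of a type and less RNA per cell cannot be told apart.

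Keratin genes arose by duplication, and some still share stretches longer than the 51-base single reads of this study. A read from inside such a stretch fits both genes. The share of each gene's 51-base transcript windows that also occur in another gene was therefore counted, and 18 of the 51 keratins had 5% or more. The longest identical coding stretches of 3 pairs, chosen because 1 gene or both differed widely in mean level, are shown 5′ to 3′ as the mm10 transcripts read, with identical bases in capitals and the first bases that lie beside them in lower case. Krt6a and Krt6b share 280 bases in a row in exon 1, enough for 230 windows.
Krt6a (chr15:101693927-101694224, mm10, minus strand): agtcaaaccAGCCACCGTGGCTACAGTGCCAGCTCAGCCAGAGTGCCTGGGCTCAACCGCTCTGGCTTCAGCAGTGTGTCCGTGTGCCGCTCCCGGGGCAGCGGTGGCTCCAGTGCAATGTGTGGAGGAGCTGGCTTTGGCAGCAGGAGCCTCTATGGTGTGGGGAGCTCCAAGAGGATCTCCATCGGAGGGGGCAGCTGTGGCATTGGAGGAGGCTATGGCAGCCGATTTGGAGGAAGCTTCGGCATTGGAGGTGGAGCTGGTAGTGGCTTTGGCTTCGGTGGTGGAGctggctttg
Krt6b (chr15:101679902-101680199, mm10, minus strand): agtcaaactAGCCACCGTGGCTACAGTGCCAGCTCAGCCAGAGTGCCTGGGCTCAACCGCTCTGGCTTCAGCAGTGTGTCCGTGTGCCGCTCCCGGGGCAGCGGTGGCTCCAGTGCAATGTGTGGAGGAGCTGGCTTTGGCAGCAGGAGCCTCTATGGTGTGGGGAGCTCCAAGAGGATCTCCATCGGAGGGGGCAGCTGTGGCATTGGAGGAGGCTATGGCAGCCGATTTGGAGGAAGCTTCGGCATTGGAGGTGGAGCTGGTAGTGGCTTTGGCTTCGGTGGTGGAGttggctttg
Krt16, a stress keratin, and Krt14, the basal keratin, share 134 bases in exon 1 (84 windows).
Krt16 (chr11:100248467-100248618, mm10, minus strand): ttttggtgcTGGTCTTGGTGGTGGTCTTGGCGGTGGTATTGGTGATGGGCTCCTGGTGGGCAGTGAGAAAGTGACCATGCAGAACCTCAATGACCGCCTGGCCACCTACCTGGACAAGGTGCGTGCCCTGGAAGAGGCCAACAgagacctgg
Krt14 (chr11:100207008-100207159, mm10, minus strand): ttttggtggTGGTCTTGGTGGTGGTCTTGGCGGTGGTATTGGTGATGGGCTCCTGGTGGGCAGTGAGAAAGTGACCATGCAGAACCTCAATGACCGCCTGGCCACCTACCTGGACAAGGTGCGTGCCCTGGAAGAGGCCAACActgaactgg
The inner root sheath genes Krt25 and Krt27 share 104 bases that begin at the first base of exon 6 (54 windows).
Krt25 (chr11:99317343-99317455, mm10, minus strand): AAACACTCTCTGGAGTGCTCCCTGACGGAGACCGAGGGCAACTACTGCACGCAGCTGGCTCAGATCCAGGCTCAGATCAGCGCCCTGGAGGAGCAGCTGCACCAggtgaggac
Krt27 (chr11:99346856-99346968, mm10, minus strand): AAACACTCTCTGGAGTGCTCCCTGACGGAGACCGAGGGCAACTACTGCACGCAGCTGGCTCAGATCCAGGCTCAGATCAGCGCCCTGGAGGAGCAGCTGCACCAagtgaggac

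In all, 57.0% of the windows of Krt6a occurred in another gene, 40.0% in Krt6b alone, and 49.7% of those of Krt6b, 44.2% in Krt6a. For Krt16 the share was 37.0%, of which 25% lay in Gm11597 and 12.0% in Krt14. For Krt14 it was 13.4%, for Krt5 12.1%, for Krt25 10.6% and for Krt17 3.6%. Krt1, Krt2 and Krt77 shared no window with any other gene. Without known strand use in the counting, antisense transcripts also matter: 24.8% of the exonic bases of Krt6a and 54.4% of those of Krt12 lay opposite another gene.

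Most keratins had no daily rhythm. Of the 51, 29 were assigned no rhythm (against 56.7% of all genes), 7 a rhythm in EpiKO only (4.31% of all genes), 2 in WT only (8.41%), 4 the same rhythm in both (16.7%) and none different rhythms (2.65%), while 9 were unassigned (11.3%). Counted by genotype, 6 keratins were rhythmic in WT (27.7% of all genes), 11 in EpiKO (23.6%) and 13 in either (32%). The 29 flat keratins are thus close to the share of all genes. All 7 with a rhythm in EpiKO only were hair keratins, and they are described below. Just inside the weight limit stood Krt35 at 0.523 and Krt23 at 0.534, both with no rhythm, and just outside it Krt13 at 0.475 and Krt83 at 0.470.

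Mean levels were lower in EpiKO for 27 keratins (37.4% of all genes), higher for 4 (32.7%) and equal for 20, so that 31 differed (70.1% of all genes). Keratins that differed by more than 2 on the log2 scale numbered 14 (12.3% of all genes), and 4 differed by more than 5 (4.59%). Those 4 were Krt6b, Krt6a, Krt25 and Krt16, all lower in EpiKO and all among the 18 keratins with 5% or more of shared windows. Among the 33 keratins under 5%, the difference ran from -3.59 to 0.85, with 14 lower (29.3% of genes under 5%) and 4 higher (37.6%). Over all genes, a difference of more than 5 was found for 0.524% of the 7246 genes with no shared window, 5.36% of the 5638 above 0 and under 5%, 5.01% of the 4132 from 5% to under 50%, and 37.6% of the 704 with 50% or more, so there was no step at 5% itself.

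**Figure D1:**
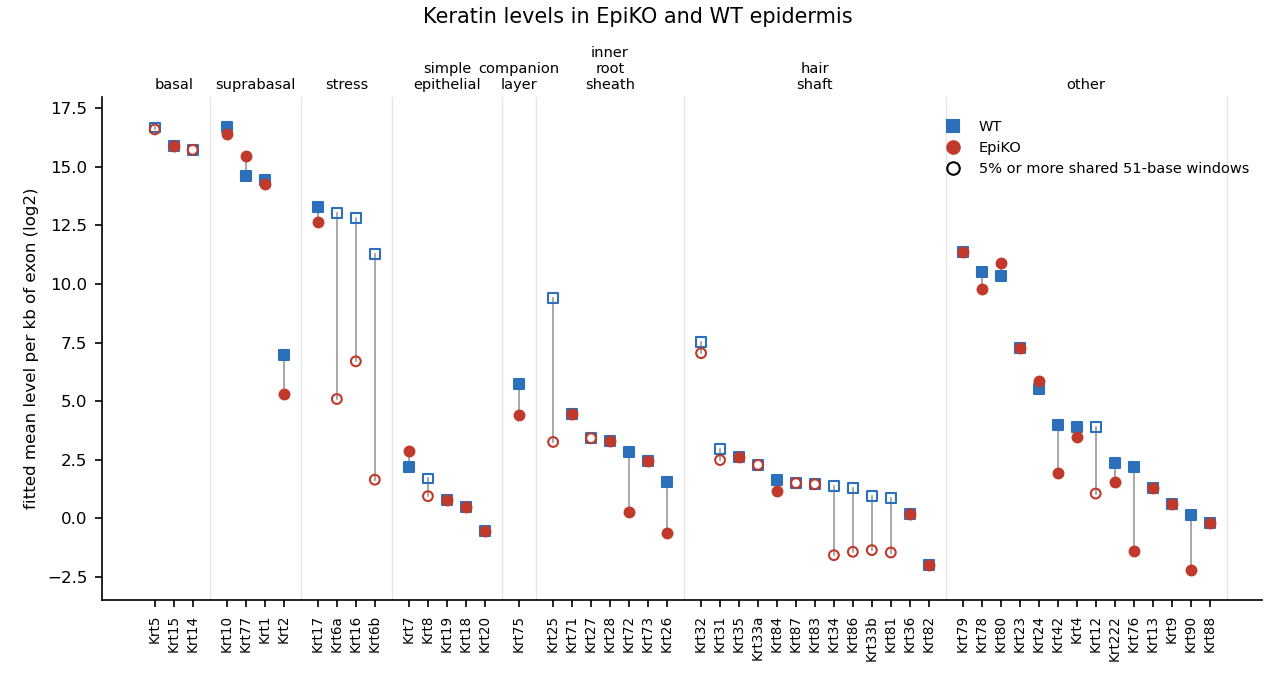
Fitted mean level per kb of exon (log2, vertical axis) of each of the 51 keratins in WT (blue squares) and EpiKO (red circles), by keratin group, with open symbols where 5% or more of the 51-base windows occur in another gene. The basal and suprabasal keratins Krt5, Krt10, Krt15 and Krt14 sit at the top in both genotypes, and the widest gaps are those of Krt6b, Krt6a, Krt25 and Krt16.

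The epidermal keratins were among the most abundant transcripts of the tissue in both genotypes. On the log2 scale per kb of exon, Krt5 (16.60 in EpiKO, 16.68 in WT) and Krt10 (16.40 and 16.68) ranked 1 and 2 among all genes in each genotype, Krt15 ranked 3 and Krt14 ranked 4. Krt77 ranked 5 in EpiKO and 13 in WT, and Krt1 ranked 16 in both. Krt5 and Krt10 had nearly the same level per kb, and with no spread between animals their order is not resolved. Type II and type I partners were unequal in level per kb (log2). Krt5 exceeded Krt14 by 0.87 in EpiKO and 0.96 in WT. Krt1 lay below Krt10 by a difference of -2.14 in EpiKO and -2.23 in WT. Lengths cover all annotated exons, 4415 bases for Krt1 (longest transcript 3133) and 2114 for Krt10, which widens the Krt1 gap and lowers its rank. Before division by length Krt1 had 16.40 and 16.59 against 17.48 and 17.76.

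The basal keratins held their levels. Krt14 (ENSMUSG00000045545; chromosome 11, 100203162 to 100207548), whose promoter drives the Cre, had one shared mean of 16.54. Its type I relative Krt15 (chromosome 11, 100131758 to 100135928), known from the basal layer and the follicle's stem cell region, did so too, at 16.71. Krt5 (chromosome 15, 101707070 to 101712898), the type II partner of both, had 17.73 in EpiKO and 17.82 in WT, a difference of -0.09 with a weight of 0.523 for separate means in the deposited table, which barely passes the limit. Thus 1 of 3 basal keratins was called lower and none higher.

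Krt5 and Krt14 were flat over the day, with weights of 0.691 and 0.694 for no rhythm in the authors' deposited table. The second largest weight was WT only for both, at 0.17 for Krt5 and 0.240 for Krt14. Krt15 was assigned a rhythm in WT only (weight 0.760), 1.28-fold with a peak at ZT11.1, late in the light phase. Its fitted level in WT was 16.53 at ZT0, 16.66 at ZT4, 16.83 at ZT8, 16.89 at ZT12, 16.76 at ZT16 and 16.59 at ZT20, against 16.71 at every time in EpiKO. The whole daily range in WT was 0.36 on the log2 scale, below the median of 0.43 over the 1490 genes assigned WT only. As neither Krt5 nor Krt14 was rhythmic, no gene was named for a curve like theirs.

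The suprabasal keratins differed from one another in mean level. Krt10 (chromosome 11, 99385254 to 99389364) had 17.48 in EpiKO and 17.76 in WT, a difference of -0.29. Krt1 (chromosome 15, 101845426 to 101850794), its main partner, had 16.40 and 16.59, a difference of -0.20 with a weight of 0.667 for separate means. Krt77 (chromosome 15, 101858731 to 101869705), a type II keratin of the suprabasal layers of mouse skin, went the other way with 17.02 in EpiKO and 16.18 in WT, 1.80-fold higher. Krt2 (chromosome 15, 101810689 to 101818169), a late type II keratin of the upper layers known best from ear, tail and sole skin, had 6.69 and 8.35, 3.17-fold lower in EpiKO. Of the 4, 3 were called lower and 1 higher, and Krt77 was the largest rise in the family. None of Krt1, Krt2 and Krt77 shares a 51-base window with another gene, and Krt10 shares 2.27%.

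Krt1 kept a low rhythm in both genotypes (weight 0.623 for the same rhythm), 1.31-fold with a peak at ZT21.4, late in the dark phase. Its fitted level in EpiKO was 16.55 at ZT0, 16.37 at ZT4, 16.22 at ZT8, 16.25 at ZT12, 16.43 at ZT16 and 16.58 at ZT20, and in WT 16.75, 16.56, 16.41, 16.44, 16.62 and 16.78 at the same times. In WT, the fitted peak of suprabasal Krt1 fell 10.3 h after that of basal Krt15, so that one was high near the trough of the other. The error of a peak time is not given in the table, and this gap was not tested. Krt10 and Krt77 were flat, with weights of 0.823 and 0.882. Krt2 was left unassigned, with a largest weight of 0.467 for WT only. Under that model its WT curve was 2.66-fold with a peak at ZT16.9, from 7.67 at ZT4 to 9.04 at ZT16.

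**Figure D2:**
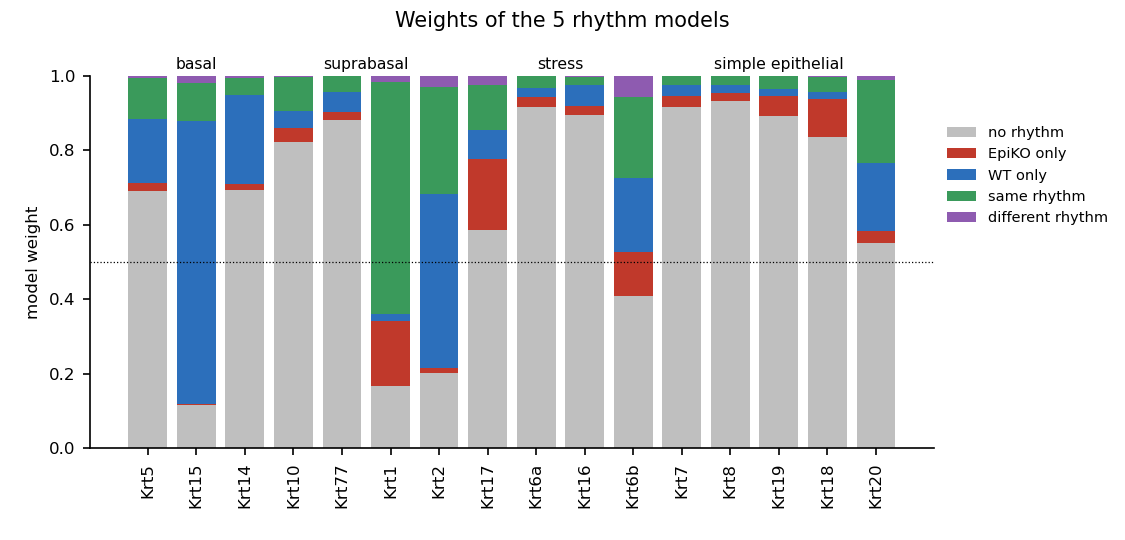
Weights of the 5 rhythm models (stacked, vertical axis from 0 to 1) for the 16 basal, suprabasal, stress and simple epithelial keratins, with the limit of 0.5 dotted. Krt15 is mostly WT only (blue) and Krt1 mostly same rhythm (green), while no-rhythm weight (grey) is above the limit for 12 of the others.

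The stress keratins showed the largest differences in the family. In the authors' deposited table Krt6b (ENSMUSG00000023041; chromosome 15, 101676023 to 101680287) had a mean of 2.81 in EpiKO and 12.45 in WT, a difference of -9.64. Krt6a (chromosome 15, 101689910 to 101694307), the other inducible type II member, had 6.37 and 14.30, a difference of -7.93. Krt16 (chromosome 11, 100246091 to 100248902), a type I partner of both, had 7.35 and 13.47, a difference of -6.12. Krt17 (chromosome 11, 100256217 to 100261029), also a type I partner, had 13.27 and 13.91, a difference of -0.65 or 1.57-fold lower. All 4 were called lower in EpiKO. Per kb, Krt6a ranked 9466 among all genes in EpiKO and 68 in WT, and Krt16 6347 and 88, while Krt17 ranked 55 in both.

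The 3 large differences were in the genes of this group that share much sequence, though size did not follow the share. Krt6a, Krt6b and Krt16, with 57.0%, 49.7% and 37.0% of windows in other genes, were the 3 that differed by more than 6, and Krt17, with 3.6%, was the one that differed by less than 1. Krt6b differed more than Krt6a with a smaller share. Other keratins with like shares differed less, such as Krt86 (43.0%, a difference of -2.73), Krt87 (36.3%, 0) and Krt31 (27.6%, -0.48). Their WT means were only 2.27, 2.69 and 3.63, however, and the lowest EpiKO mean of any gene was -2.45. A fall of more than 6 thus had little or no room in them, and they cannot serve as a like comparison. The median of the group was -7.03 over all 4 and -0.65 with genes of 5% or more left out, which leaves Krt17 alone. The neighbours in the type II cluster that hold parts of the same sequence were lower in EpiKO by still more. These were Gm5478 (1.25 in EpiKO, 13.20 in WT) and Gm5414 (0.44 and 12.45). Genes unrelated to keratins also differed widely, in either direction. Gapdh, a glycolytic enzyme used as a reference gene, was lower in EpiKO (6.96 against 12.70 in WT). Tmsb4x, an abundant actin-binding peptide gene, was higher in EpiKO (13.45 against -1.41). Gapdh has 25% of its windows in other genes, and Tmsb4x none. The sources used here do not say whether shared reads were counted alike in the EpiKO and WT sets, and their part in the fall of Krt6a, Krt6b and Krt16 was not tested. For Krt5 and Krt14, with shares of 12.1% and 13.4%, no such gap was seen.

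**Figure D3:**
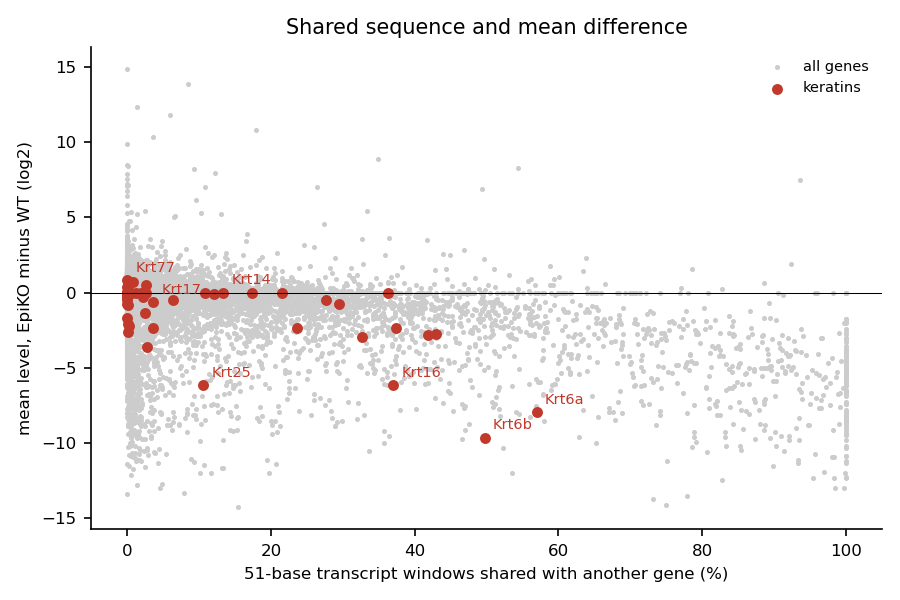
Difference in mean level, EpiKO minus WT (log2, vertical axis), against the percentage of 51-base transcript windows found in another gene (horizontal axis), for all genes (grey) and the 51 keratins (red). Krt6a, Krt6b, Krt16 and Krt25 are the 4 keratins that differ by more than 5, and the 33 keratins under 5% lie between -3.59 and 0.85.

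None of the stress keratins was assigned a rhythm. Krt6a was flat at 6.37 in EpiKO and 14.30 in WT at each of the 6 times (weight 0.917), and Krt16 at 7.35 and 13.47 (weight 0.894). Krt17 was flat at 13.27 and 13.91 with a weight of 0.586. Krt6b was unassigned, with a largest weight of 0.409 for no rhythm.

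The simple epithelial keratins, which build the filaments of single-layered epithelia and in skin belong to Merkel cells and glands, were near the bottom of the measured range except Krt7. Krt18 (1.00), Krt19 (1.67) and Krt20 (0.40) each had one shared mean (log2). Krt8, the type II partner of Krt18, had 1.91 in EpiKO and 2.67 in WT, a difference of -0.76, and 29.5% of its windows occurred in other genes. Krt7, known from glands and ducts, had 5.69 and 5.0, 1.61-fold higher in EpiKO. All 5 were assigned no rhythm, with weights from 0.552 for Krt20 to 0.934 for Krt8.

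Hair keratins were mostly low in both genotypes, and they held all 7 of the rhythms seen in EpiKO only. The 21 were 7 inner root sheath genes, Krt75 of the companion layer and 13 hair shaft genes. Of these, 7 were assigned EpiKO only (4.31% of all genes), 2 the same rhythm (16.7%), 7 no rhythm (56.7%), and 5 were unassigned (11.3%). No hair keratin was assigned WT only or different rhythms. Their median level was 2.69 in EpiKO and 3.44 in WT, where the median over all genes was 7.57 and 7.79 (log2). Means were called lower for 11 of the 21 (37.4% of all genes), higher for none (32.7%) and equal for 10.

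The 2 inner root sheath genes among the 7 were Krt25, a type I keratin of all its layers, and Krt73, a type II keratin of its cuticle. Krt25 (chromosome 11, 99315516 to 99322951) was fitted in EpiKO at 3.33 at ZT0, 2.76 at ZT4, 3.68 at ZT8, 5.17 at ZT12, 5.74 at ZT16 and 4.82 at ZT20. That is an 8.07-fold rhythm with a peak at ZT15.5 (weight 0.730), and WT was flat at 10.39. Its EpiKO mean of 4.25 was below the WT mean by a difference of -6.14, beside 10.6% of shared windows, whose part was not tested. Krt73 (chromosome 15, 101793308 to 101802346) was fitted in EpiKO at 2.10, 1.82, 3.28, 5.03, 5.31 and 3.85 at the same times. It rose 13.5-fold from trough to a peak at ZT14.6 (weight 0.578) around one shared mean of 3.57, and only 1.27% of its windows occurred in another gene.

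The other 5 were hair shaft genes. Krt31 (type I, hair cortex) was fitted in EpiKO from 2.14 at ZT4 to 4.16 at ZT16, 4.56-fold with a peak at ZT14.5 and a weight of 0.878. Krt87 (type II) went from 1.46 at ZT4 to 3.91 at ZT16, 5.57-fold with a peak at ZT15.4 and the highest weight of the 7, 0.928. Both lay under their flat WT levels of 3.63 and 2.69 at ZT4 and above them at ZT16. Krt81 (type II, hair cortex) went from -2.08 to 1.33 at those times, 10.8-fold, with a peak at ZT15.6 and a weight of 0.587. Krt34 (type I, hair cortex) went from -2.85 to 1.08, 15.7-fold, with a peak at ZT15.5 and a weight of 0.877. Krt33b (type I, hair cortex) went from -3.02 to 1.63, 25.1-fold, with a peak at ZT15.9 and a weight of 0.844. Krt81 and Krt34 stayed under their flat WT levels of 1.96 and 2.05 even at ZT16, and Krt33b reached its WT level of 1.63. The troughs of these 3 lay near or under the lowest mean of any gene in EpiKO, which was -2.45, so their folds rest on a trough at the edge of the measured range.

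The 7 peaks fell between ZT14.5 and ZT15.9, early in the dark phase, with a mean of ZT15.3. The 7 are not fully separate cases, because some hair shaft genes among them share sequence with one another. Krt31 had 20.5% of its windows in Krt34 and 13.4% in Krt33b, Krt33b had 15.1% in Krt34, and Krt81 had 12.5% in Krt87. Of the 153 genes with a rhythm in EpiKO only and a mean under 4, 34 peaked between ZT12 and ZT16 and 54 between ZT16 and ZT20. Between ZT14 and ZT16, where all 7 keratins lay, 25 (16.3%) of these low genes peaked, so their peaks were spread more widely. The low genes include all of the 7 but Krt25, whose EpiKO mean was 4.25. Of the 29 keratins with a mean under 4 in EpiKO, 6 were assigned EpiKO only (2.73% of such genes), and of the 22 with a higher mean, 1 was (5.04%). The median peak-to-trough height of the 7 was 3.44, against 2.05 for those 153 genes and 0.40 for the 611 EpiKO-only genes with a mean of 4 or more. With genes of 5% or more of shared windows left out, Krt73 was the 1 EpiKO-only keratin left, and with genes under a mean of 4 in either genotype left out it was Krt25.

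**Figure D4:**
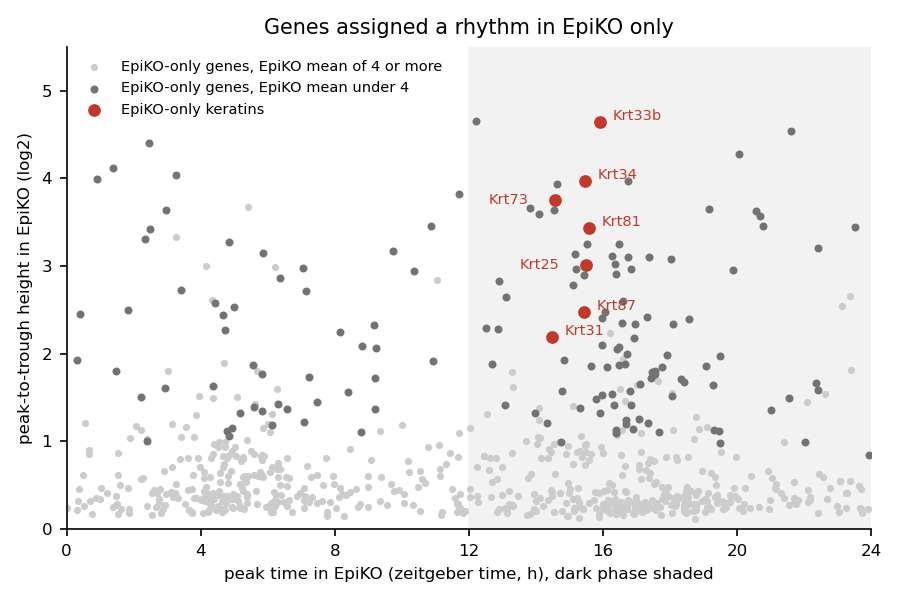
Peak time in EpiKO (zeitgeber time in h, horizontal axis) against peak-to-trough height (log2, vertical axis) for the genes assigned a rhythm in EpiKO only, in dark grey where the EpiKO mean is under 4, with keratins in red. The 7 keratins lie between ZT14.5 and ZT15.9, and all but Krt25 have an EpiKO mean under 4. Outside the plot is 1 gene above a height of 5.5.

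Peaks near ZT15 were also fitted in inner root sheath genes that were not assigned EpiKO only. Krt28, a type I inner root sheath keratin, had the same rhythm in both genotypes (weight 0.606), 2.77-fold with a peak at ZT15.1, from 3.28 at ZT4 to 4.71 at ZT16 in each. Krt26 and Krt27, also type I, were unassigned, but their largest weights, 0.418 and 0.444, were for the same rhythm as well, with peaks at ZT14.8 and ZT15.0 and heights of 3.43-fold and 3.23-fold. Krt27 shares with Krt25 the stretch shown above, which is 10.9% of its windows, so their reads are in part the same. Krt71, a type II partner in all inner root sheath layers, was unassigned with weights of 0.340 for no rhythm and 0.321 for EpiKO only, and Krt72, of the cuticle, was flat (weight 0.760). Means were lower in EpiKO for Krt25, Krt26 (a difference of -2.19) and Krt72 (-2.59) and equal for Krt27, Krt28, Krt71 and Krt73.

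Among the remaining hair shaft genes, Krt32, a type I keratin of the hair cuticle, was the most abundant hair keratin in EpiKO at 7.83, against 8.30 in WT. It had the same rhythm in both (weight 0.823), 1.47-fold with a peak at ZT8.96, in the light phase unlike the other hair keratins assigned a rhythm. Krt33a (largest weight 0.445, same rhythm) and Krt83 (0.470, no rhythm) were unassigned. The fitted peak of Krt33a also lay in the light phase, at ZT11.3, with a height of 2.27-fold. Krt35, Krt36, Krt82, Krt84 and Krt86 were flat. Means of the hair shaft group were lower for 7 of 13, led by Krt34 (-2.94), Krt86 (-2.73), Krt81 (-2.34) and Krt33b (-2.33), all with 23.6% or more of shared windows. The other 3, Krt31, Krt32 and Krt84, differed by between -0.48 and -0.45, with shares of 27.6%, 6.34% and 0%, and Krt87 had an equal mean with 36.3%. Krt75, the companion layer keratin, was flat (weight 0.879) and 2.51-fold lower in EpiKO, 6.13 against 7.46, with 2.46% of shared windows.

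Other genes of the hair follicle did not follow as a set. Of 42 measured Krtap genes, which encode the matrix proteins between hair shaft filaments, 41 were assigned no rhythm (56.7% of all genes). The remaining 1, Krtap11-1, had a rhythm in EpiKO only (4.31%) with a peak at ZT14.5. Means of Krtap genes were lower in EpiKO for 26 (37.4%) and higher for none (32.7%). Their median level was -1.74 in EpiKO and 0.72 in WT, near the lowest of the table. Of 8 hair shaft and matrix genes, 1 was assigned EpiKO only (4.31%), 2 the same rhythm (16.7%), 2 no rhythm (56.7%) and 3 none of the classes (11.3%). Of 5 inner root sheath markers, Gata3 and Padi1 had no rhythm (56.7% of all genes) and Tchhl1 was unassigned (11.3%). The other 2 had the same rhythm in both (16.7%): Tchh, the trichohyalin gene, with a peak at ZT15.0, and Mlph with one at ZT14.1. Of 8 follicle stem cell genes, 5 had no rhythm (56.7% of all genes). The rest were 1 EpiKO only (4.31%), 1 WT only (8.41%) and 1 the same (16.7%). The WT-only one, Krt15, peaked at ZT11.1. Other rhythmic genes of the hair shaft and matrix and stem cell lists peaked later than the 7 keratins. These were Hoxc13 at ZT19.8, Lhx2 at ZT20.2 and Shh at ZT22.8 in both genotypes, and Foxn1 at ZT21.7 and Cd34 at ZT23.1 in EpiKO only. Low genes of another tissue peaked nearby. Acta1, the actin of skeletal muscle, was assigned EpiKO only with a peak at ZT16.8 and a mean of 2.21 against 9.90 in WT. Des, Ckm and Myh4 were unassigned, but their largest weights, 0.492, 0.349 and 0.499, were for EpiKO only as well. Their fitted peaks were at ZT18.1, ZT16.9 and ZT14.8. Whether follicles in growth or other tissue in some of the animals at ZT16 took part in these peaks was not tested.

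**Figure D5:**
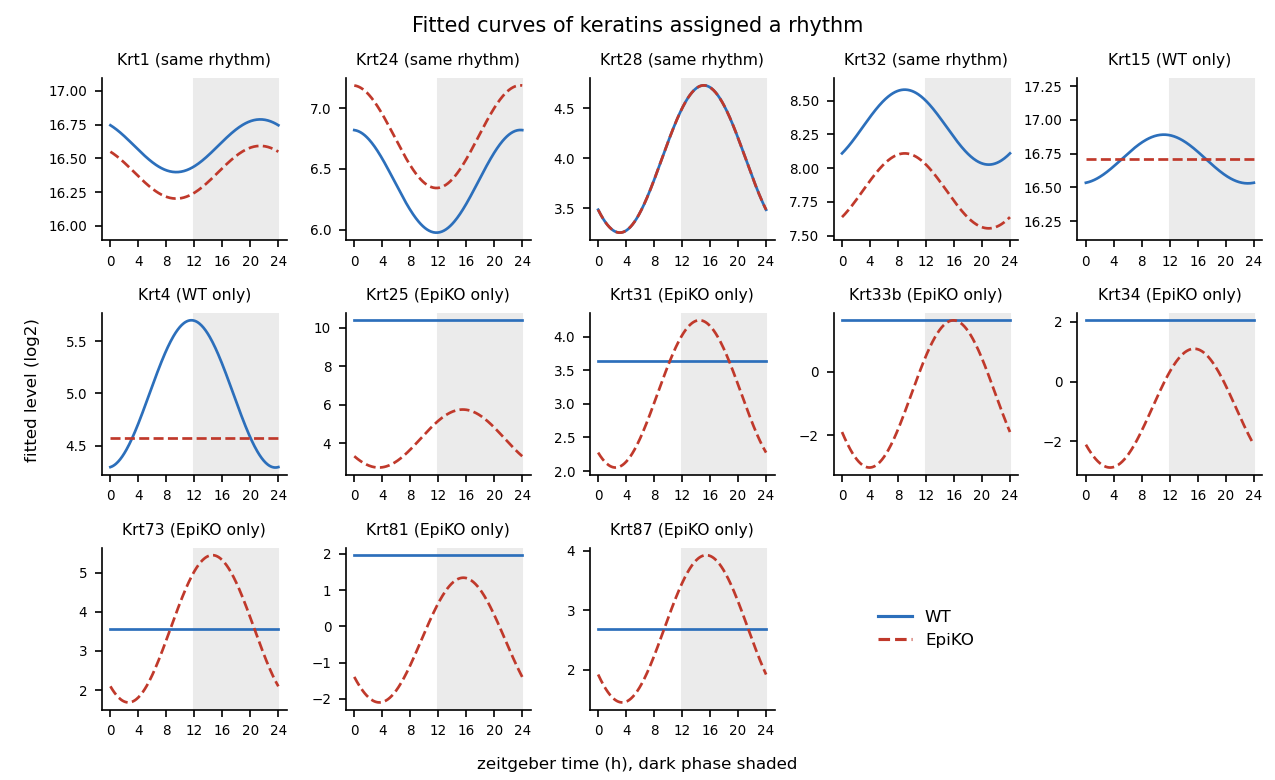
Fitted level (log2, vertical axis, a scale of its own in each panel) over zeitgeber time (h, horizontal axis, dark phase shaded) of the 13 keratins assigned a rhythm, in WT (solid blue) and EpiKO (dashed red). Krt25, Krt31, Krt33b, Krt34, Krt73, Krt81 and Krt87 rise to a peak between ZT14.5 and ZT15.9 in EpiKO and are flat in WT.

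As members that move together, 3 of the EpiKO-only keratins with a promoter in the RefSeq table (Krt25, Krt73 and Krt34) and Krt28, which has the same peak time in both genotypes, are shown from 250 bases before to 50 bases after the start of the gene. Capitals mark TATAAA, the TATA box letters, and CTTTGA, the core that LEF1 and its relatives bind, a factor known for hair shaft genes, each searched on both strands.
Krt25 (chr11:99322902-99323201, GRCm38.p6, minus strand): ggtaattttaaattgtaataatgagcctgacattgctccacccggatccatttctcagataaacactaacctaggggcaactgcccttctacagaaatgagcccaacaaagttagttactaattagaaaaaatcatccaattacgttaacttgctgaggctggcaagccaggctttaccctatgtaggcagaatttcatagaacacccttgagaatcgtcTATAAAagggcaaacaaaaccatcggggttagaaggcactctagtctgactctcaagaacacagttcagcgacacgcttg
Krt73 (chr15:101802311-101802610, GRCm38.p6, minus strand): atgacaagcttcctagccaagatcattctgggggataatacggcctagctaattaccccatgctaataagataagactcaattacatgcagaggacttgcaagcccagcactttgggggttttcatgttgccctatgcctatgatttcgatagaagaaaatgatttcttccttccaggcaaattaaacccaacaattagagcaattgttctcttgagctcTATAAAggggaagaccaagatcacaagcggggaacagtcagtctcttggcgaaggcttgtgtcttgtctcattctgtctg
Krt34 (chr11:100041505-100041804, GRCm38.p6, minus strand): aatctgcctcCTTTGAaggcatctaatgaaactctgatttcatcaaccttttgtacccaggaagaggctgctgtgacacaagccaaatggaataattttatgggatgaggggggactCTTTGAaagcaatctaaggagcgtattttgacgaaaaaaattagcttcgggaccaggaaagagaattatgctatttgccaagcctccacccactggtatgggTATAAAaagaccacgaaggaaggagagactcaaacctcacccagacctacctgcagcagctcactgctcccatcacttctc
Krt28 (chr11:99374854-99375153, GRCm38.p6, minus strand): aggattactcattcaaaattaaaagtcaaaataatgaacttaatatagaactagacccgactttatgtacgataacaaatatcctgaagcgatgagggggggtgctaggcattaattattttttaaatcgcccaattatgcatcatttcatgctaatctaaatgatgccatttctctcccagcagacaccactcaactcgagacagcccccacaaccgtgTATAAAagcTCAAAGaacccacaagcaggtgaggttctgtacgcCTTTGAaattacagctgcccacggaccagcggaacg
The table held promoters of 34 of the 51 keratins. TATAAA occurred in 18 of the 34, in all 7 of the inner root sheath and in 5 of 7 of the hair shaft, against 13.6% of 32851 promoters of the same length. The 8 rhythmic keratins with a promoter were hair keratins except Krt24, and TATAAA occurred in 7 of them, all hair keratins already counted. Keratins were counted once per gene, whereas the shares of all promoters were counted per promoter. CTTTGA occurred in 8 of the 34 (16% of all promoters), 4 of them hair shaft genes. It occurred in 5 of the 8 rhythmic ones, which were those 4 and Krt28. CACGTG, the E-box of BMAL1 and CLOCK, occurred in 3 of the 34, Krt23, Krt75 and Krt78 (7.15%), and in none of the 8 rhythmic ones. TTANGTAA, a D-box, occurred in none (2.32%), and AGGTCA, a half-site of REV-ERB and ROR, in 9 (16.3%), of which 1 was rhythmic. The 5 motifs differ in their letters, and overlapping matches were not removed. These matches describe letters in a window, not binding.

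The other 14 keratins include those of inner stratified epithelia, of palm and sole, and members found in skin and its appendages. Krt79 (13.62 in both, a keratin of the follicle's upper duct) and Krt23 (7.93 in both) were flat with one shared mean. Krt80, a broadly expressed type II keratin, was 1.43-fold higher in EpiKO (13.55 against 13.03) and flat. Krt78 was lower, 11.55 against 12.30, and flat. Krt24, a type I keratin linked to differentiation of keratinocytes, had the same rhythm in both (weight 0.715), 1.80-fold with a peak at ZT23.7, and a mean of 6.77 against 6.40 whose separation barely passed the limit (weight 0.510). Krt4, of the lining of mouth and oesophagus, was rhythmic in WT only (weight 0.720), 2.66-fold with a peak at ZT11.6, and 4.57 in EpiKO against 4.99 in WT. Its type I partner Krt13 was unassigned, with a largest weight of 0.475 for WT only and a fitted peak at ZT12.3. The largest falls in mean were Krt76 (-3.59), Krt12 (-2.83), Krt90 (-2.36) and Krt42 (-2.05), all under 5 in WT. In total 7 of the 14 were called lower and 2 higher, and 10 were flat, with 1 WT only, 1 the same and 2 unassigned.

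The 4 rhythms the keratins shared between genotypes were higher than the median of such rhythms. Over the 2954 genes with the same rhythm the median height was 0.32. Krt1 (0.39), Krt32 (0.56), Krt24 (0.85) and Krt28 (1.47) exceeded 62.8%, 78.4%, 88.6% and 96.2% of them. In WT only, Krt15 (0.36) exceeded 37.9% of 1490 genes and Krt4 (1.41) exceeded 91.8%. These ranks are among genes of all levels and were not matched for level. Krt28 (a mean of 3.99 in both) and Krt4 (4.57 in EpiKO, 4.99 in WT) were low genes.

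A list of 26 keratin partners, of which 24 were measured, was made mainly of genes whose proteins anchor, bundle or bind keratin filaments. It also held the transcription factors Trp63 and Klf4, the transglutaminases Tgm1, Tgm3 and Tgm5, and Lor of the cornified envelope. In that list 12 had no rhythm (56.7% of all genes), 6 the same rhythm (16.7%) and 2 a rhythm in WT only (8.41%). Another 1 was EpiKO only (4.31%), 1 had different rhythms (2.65%), and 2 were unassigned (11.3%). Means were lower for 15 (37.4% of all genes) and higher for 2 (32.7%). Dsp, the desmoplakin that ties keratin to desmosomes, was flat (weight 0.906) with a difference of -0.28 from 17.07 in WT to 16.79 in EpiKO. Dst, whose epithelial form ties keratin to hemidesmosomes, was the one with different rhythms (weight 0.895), 1.51-fold in EpiKO and 2.18-fold in WT, with peaks at ZT9.70 and ZT9.40. Ppl, periplakin, was rhythmic in WT only, 1.40-fold with a peak at ZT9.84, and Evpl, its partner envoplakin, in EpiKO only, 1.28-fold with a peak at ZT21.4. Flg2 and Hrnr, which encode proteins that pack keratin in the cornified layer, had means of 9.37 and 7.95 in EpiKO against 12.70 and 12.01 in WT. No window of theirs occurred in another gene, but this count does not see repeats within a gene.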

How the data were processed

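RNA from dispase-freed epidermal cells was sequenced as single reads of 51 bases with a stranded kit for polyadenylated RNA, per the labels' protocols. Tools named in the submitters' processing notes, with the build mm10, are featureCounts 1.6.0, SAMtools 1.3.1, HISAT2 2.2.1, edgeR and Trimmomatic 0.36; the sources used here give neither roles nor strand setting. WT rhythms were compared by dryR, per the series' design text. The authors deposited each model weight as a score from 0 to 1 and each mean as a log2 value, scaled between libraries in a way the sources do not state. The authors' deposited amplitude, checked within a tolerance of 1e-06, is the peak-to-trough height. Columns of the genotype other than WT were read as EpiKO, as there are 2 genotypes. The table holds no value per library, so depth is unknown and no test was run.

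Symbols, positions and exon lengths came from GENCODE M21 (17720 of 17721 identifiers matched), promoters from RefSeq GRCm38.p6. Classes, mean calls, fitted levels and shared 51-base windows, counted on either strand, were computed in Python 3.11.15 with NumPy 2.4.6 and pandas 2.3.3, and the class rule was tested on simulated data. Members, lists and limits were chosen with earlier results of these data known. Basal, suprabasal, stress and simple epithelial keratins, Krt75, Krt78, Krt79 and Krt80 are named by rule, as are at most 8 inner root sheath and 8 hair shaft keratins that were rhythmic or differed in mean. The other keratins and all other genes named were chosen after their values were seen. Alternatives were other weight limits, a minimum amplitude or difference, centring, and leaving out low or sequence-sharing genes.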

Additional observations from a re-analysis of the deposited data

How the results depend on the processing

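Of 89 values recomputed under alternatives for the counts of keratins per class and for the median mean differences, 56 stayed close (counts within 1.5 times, medians within 0.1), 33 moved further and 0 changed sign. Without a minimum weight, and likewise with one of 0.4, 4 keratins were WT only, 7 had the same rhythm and 11 were rhythmic in WT. With a minimum weight of 0.8, 16 keratins had no rhythm, 4 were EpiKO only, 0 WT only and 1 had the same rhythm, so 1 was rhythmic in WT and 5 in EpiKO. Without the genes whose mean is below the 0.25 quantile (31 keratins left), the data gave 16 with no rhythm, 3 EpiKO only, 7 rhythmic in EpiKO and 17 with a lower mean, and medians of 0.69 for simple epithelial, 0 for hair and -0.42 for other keratins. Leaving out genes with 5% or more of shared windows (33 left) gave 1 EpiKO only, 4 rhythmic in EpiKO and 14 lower, and medians of -0.65 for stress, 0 for hair and 0 for other keratins. Leaving out genes with a mean under 4 in either genotype (22 left), chosen after seeing the data, gave 13 with no rhythm, 1 EpiKO only, 4 rhythmic in EpiKO and 12 lower, and medians of -6.12 for stress, 0.69 for simple epithelial and 0 for other keratins. The inner root sheath keratins alone had a median of 0. A lower weight limit lets more genes into a class, and a higher one, or leaving genes out, fewer; no other cause was tested. Centring could change nothing, because the median difference over all genes was 0. A minimum amplitude of 0.25 could not either, because the lowest height of a keratin assigned a rhythm was 0.36 (Krt15). Values under these alternatives are among the 56 that stayed close and say nothing about stability. A minimum difference of 0.5 left 20 keratins lower and 3 higher. No paired analysis was possible because the table holds no value per library; for the same reason no replicate could be left out, and depth cannot be set against any call.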
